A study of Homo sapiens with 6 samples.

Results

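STK32A, KISS1 and KISS1R, 3 of the 21134 genes in the deposited table, were described across 6 RNA-seq libraries of cultured human cardiomyocytes. STK32A and KISS1 were chosen from their own measurements, STK32A for a strong rise and KISS1 for a strong fall in the libraries given alcohol with losartan against the control libraries, and KISS1R was set beside them because it encodes the receptor for the KISS1 peptides. The difference between co-treated and control libraries therefore describes STK32A and KISS1 and tests nothing about them. The comparisons with the alcohol libraries share either the control or the co-treated libraries with that choice, so they are given with their errors and without a p-value as well.

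The cells were cardiomyocytes differentiated from the H9 line and are named hiPSC-CMs here after the labels, although the H9 line was derived from a human embryo and not by reprogramming. The control libraries came from untreated hiPSC-CMs, the alcohol libraries from cells kept for 24 h in 100 mM alcohol, and the co-treated libraries from cells kept for 24 h in 100 mM alcohol together with 1 μM losartan. Each group has 2 libraries. Losartan blocks the type 1 receptor of angiotensin II. No group received losartan without alcohol, so an effect of losartan by itself cannot be told apart from its effect in the presence of alcohol. Every library came from the same line, and nothing in the labels says whether replicates were separate differentiations. The SD values below therefore measure the spread between these libraries only. The SE values come from a fit that estimates the spread of each gene partly from the other genes.

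The expected counts, which are estimates of the reads of each gene, summed to between 4898287 and 5051448 per library. A floor of 3 counts was set, which at these totals equals 0.594 to 0.612 CPM (counts scaled to the library total). The exact two-sided 95% Poisson interval of a count of 0 reaches somewhat higher, to 3.69 counts. Levels are given as FPKM, which scales counts by gene length and library reads, where genes are compared with each other. The log2 values of replicates correlated across genes with r between 0.975 and 0.978. The cardiomyocyte markers were present in every library, with a summed level of 22052 to 31063 FPKM over 12 markers.

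STK32A (serine/threonine kinase 32A, NCBI Gene 202374) belongs to the AGC group of protein kinases, which also holds protein kinases A and C and AKT, and little is established about its substrates. KISS1 (NCBI Gene 3814) encodes a secreted precursor that proteases cut into kisspeptins, short peptides with an amidated C-terminus of the RFamide type. Kisspeptins bind KISS1R (NCBI Gene 84634), a receptor that couples to Gq and phospholipase C and so raises intracellular calcium. KISS1 was first described as a suppressor of metastasis, its transcript is abundant in the placenta, and in the hypothalamus kisspeptin neurons drive the release of gonadotropin-releasing hormone. The peptides also constrict some human blood vessels, and their receptor has been described in the heart.

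In the RefSeq annotation of GRCh38.p14, KISS1 lies at chr1:204190341-204196491 on the minus strand, and its matched transcript has 3 exons. KISS1R lies at chr19:917333-921005 on the plus strand, with 5 exons in its matched transcript. STK32A spans chr5:147235026-147401990 on the plus strand, with 3 matched transcripts of 5393, 1637 and 798 bases. The RefSeq promoter of KISS1, from 250 bases before to 50 bases after the start of the gene at chr1:204196442-204196741, is printed because KISS1 carries the fall described here and transcription of its matched transcript starts in it. The minus strand is written 5′ to 3′, and capitals mark the matches to 3 of 4 motifs that were searched for on both strands.

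KISS1 promoter: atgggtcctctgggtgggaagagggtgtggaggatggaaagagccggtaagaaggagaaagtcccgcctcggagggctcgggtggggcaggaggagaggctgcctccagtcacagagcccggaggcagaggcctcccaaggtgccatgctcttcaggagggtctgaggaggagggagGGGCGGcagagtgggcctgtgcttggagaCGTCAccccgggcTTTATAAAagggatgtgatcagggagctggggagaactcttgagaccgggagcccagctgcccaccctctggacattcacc

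The letters of the core promoter element TATAAA matched once on each strand, at 31 and 29 bases before the start, and these matches overlap. GGGCGG (GC box) matched once, at -73 from the start, and TGACG, the cyclic AMP response element half-site, matched once on the opposite strand at -44. The AP-2 motif GCCNNNGGC had 0 matches in this window. Among 35116 RefSeq promoters of the same length, 11.5% held the first of these motifs, 45% the GC box, 24.6% the half-site and 23.2% the AP-2 letters. These matches are a description of the sequence, since binding at the promoter was not measured.

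STK32A was at 1.23 and 0.66 FPKM in the control libraries, at 1.83 and 3.29 FPKM in the alcohol libraries and at 4.86 and 5.88 FPKM in the co-treated libraries. Both alcohol libraries were above both control libraries, and both co-treated libraries were above both alcohol libraries. The group means were 0.945 ± 0.403, 2.56 ± 1.03 and 5.37 ± 0.721 FPKM (SD, n = 2 each). In rank among the genes with a level above 0, STK32A moved from the lower part of the range to its middle. The share of these genes with a mean FPKM at or below it was 26.2% in control libraries, 39.3% with alcohol and 52.3% with co-treatment. In bulk RNA, more cells with a transcript and more of it per cell cannot be told apart, and the same holds for a fall.

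KISS1 ran in the opposite order. It was at 28.3 and 28.7 FPKM in the control libraries, at 10.4 and 16.2 FPKM in the alcohol libraries and at 9.54 and 7.61 FPKM in the co-treated libraries. The group means were 28.5 ± 0.262, 13.3 ± 4.10 and 8.57 ± 1.36 FPKM (SD, n = 2 each). The groups did not overlap, but the lower alcohol library and the higher co-treated library were less than 1 FPKM apart. KISS1 stood at or above 87.8% of the genes with a level above 0 in control libraries, 72.9% with alcohol and 62.8% with co-treatment, in the upper part of the range each time.

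KISS1R, the receptor, was at or near 0 in every library. It had 0 and 1 counts in the control libraries, 0 and 0 in the alcohol libraries, and 0 and 1 in the co-treated libraries, where 1 count is 0.12 FPKM. All 6 values lie under the floor of 3 counts. KISS1R did not pass the filter on low counts, so 2 of the 3 genes were fitted and no fold change is given for the receptor. A difference in KISS1R between the groups was not detectable at this depth.

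**Figure D1:**
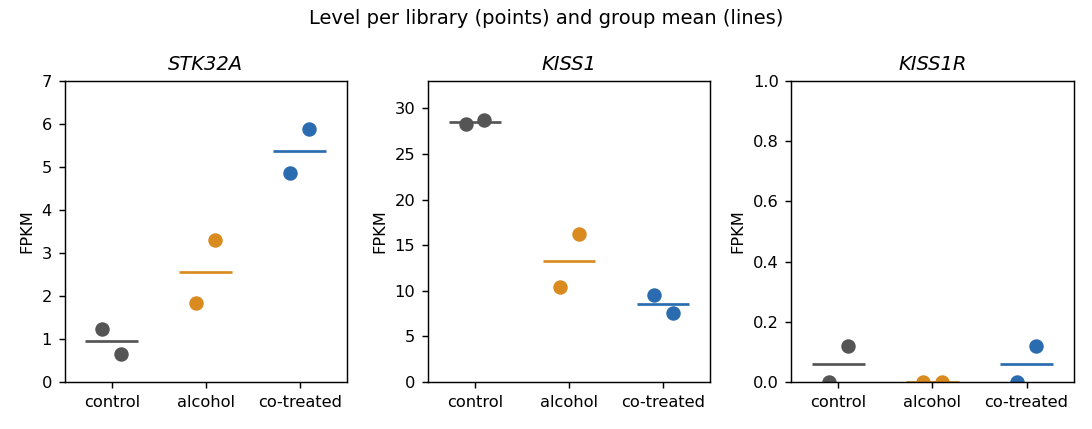
FPKM of STK32A, KISS1 and KISS1R in each library, with points for libraries, lines for the means of 2 libraries, and separate vertical axes. STK32A climbs from 0.66 to 5.88 FPKM across the groups, KISS1 descends from 28.7 to 7.61 FPKM, and KISS1R does not exceed 0.12 FPKM.

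The expected counts behind these levels were small enough for counting error to matter. STK32A had expected counts of 27.6 and 16.5 in control, 45.8 and 57.8 in alcohol and 105 and 111 in co-treated libraries. Their exact 95% Poisson intervals, taken on rounded counts, were 18.6 to 40.5 and 9.15 to 26.0 in control, 33.7 to 61.4 and 44.0 to 75.0 in alcohol, and 85.9 to 127 and 91.3 to 134 in co-treated libraries. The co-treated intervals lay above all the others, while the interval of alcohol library 1 overlapped that of control library 1. KISS1 had 101 and 102 counts in control, 37 and 56 in alcohol, and 33 and 27 in co-treated libraries. Its control intervals, 82.3 to 123 and 83.2 to 124, lay above those of all 4 treated libraries, the highest of which ended at 72.7. The interval of alcohol library 1 (26.1 to 51.0) overlapped those of co-treated library 1 (22.7 to 46.3) and co-treated library 2 (17.8 to 39.3). That of alcohol library 2 (42.3 to 72.7) overlapped the interval of co-treated library 1 but not that of co-treated library 2. These intervals cover counting error only.

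In the fit of edgeR, which used all 6 libraries, STK32A was higher in co-treated than in control libraries by 2.26 on the log2 scale (SE 0.29), a 4.81-fold difference. It was 2.32-fold higher in alcohol than in control libraries (log2 1.21, SE 0.31) and 2.07-fold higher in co-treated than in alcohol libraries (log2 1.05, SE 0.26). The alcohol against control difference depended on which control library was kept: the log2 value was 1.70 without control library 1 and 0.87 without control library 2.

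KISS1 was 3.43-fold lower in co-treated than in control libraries, with a log2 fold change of -1.78 (SE 0.27). With alcohol, KISS1 was 2.21-fold lower than in control libraries (log2 -1.15, SE 0.25). The further difference between co-treated and alcohol libraries was 1.55-fold (log2 -0.63, SE 0.29). It was -0.32 without alcohol library 2 and -0.89 without alcohol library 1.

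Among the 14926 genes fitted, STK32A had rank 22 of all rises and KISS1 rank 28 of all falls between co-treated and control libraries. The 21 genes with a larger rise than STK32A were mostly sparse, with a median of 27.2 for their highest count in any library. Of these, 10 had hyphenated symbols, a form that read-through genes share with antisense RNA genes and with others such as HLA-G. For the 27 genes with a larger fall than KISS1 the median highest count was 27, and 6 had hyphenated symbols. The share of hyphenated symbols over all genes tested was not counted. Of these genes, 2 of the 21 and 3 of the 27 passed an adjusted p of 0.05 by edgeR's quasi-likelihood test. Over all genes tested, 0.214% passed as higher and 0.147% as lower. The 2 counts come from genes ranked on the same difference, so they only describe the ranking. Just above STK32A in this ranking was KIAA1644 (log2 fold change 2.44, SE 0.41) and just below it GNG2, a G protein gamma subunit (2.23, SE 0.40). Just above KISS1 in size of fall stood the read-through gene PMF1-BGLAP (-1.78, SE 0.61) and just below it SULT1A4, a sulfotransferase (-1.77, SE 0.60). SPRY4, an inhibitor of receptor tyrosine kinase signalling, and NPPB, which encodes brain natriuretic peptide, were also among the 5 genes ranked immediately ahead of KISS1, with log2 fold changes of -2.03 (SE 0.32) and -1.90 (SE 0.41).

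For scale, 54 genes, 0.362% of those tested, passed an adjusted p of 0.05 between co-treated and control libraries by edgeR's quasi-likelihood test with Benjamini-Hochberg adjustment, 32 of them higher (0.214%) and 22 lower (0.147%). Between alcohol and control libraries 10 genes passed (0.0670%), 9 higher (0.0603%) and 1 lower (0.00670%). Between co-treated and alcohol libraries 2 genes passed (0.0134%), 1 higher and 1 lower (0.00670% each). Libraries that do not overlap were common: the co-treated libraries were both above both control libraries in 21.6% of genes and both below in 21.7%. The corresponding shares were 22.0% and 21.8% for alcohol against control and 17.4% and 16.2% for co-treated against alcohol. The full order of control below alcohol below co-treated, which STK32A showed, was met by 326 genes (2.18%), and the reverse order, which KISS1 showed, by 323 genes (2.16%).

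**Figure D2:**
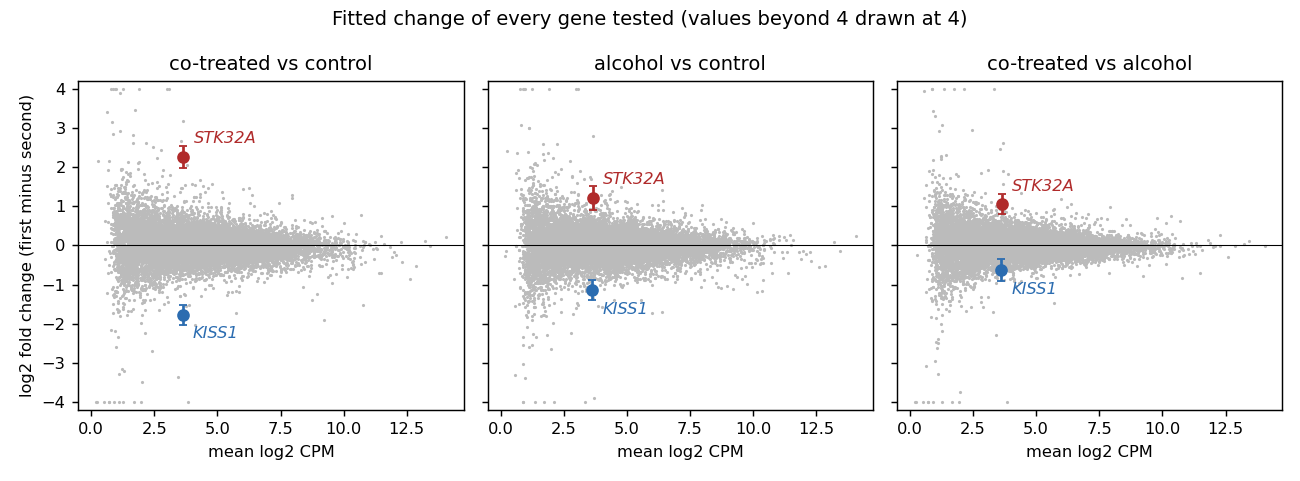
Fitted log2 fold change (vertical axis) against mean log2 CPM (horizontal axis) for the 14926 genes tested, in each of the 3 comparisons, with values beyond 4 drawn at 4. STK32A (red) and KISS1 (blue), shown with bars of 1 SE, have similar mean levels and lie on opposite edges of the cloud, at 2.26 and -1.78 for co-treated against control, and nearer to 0 in the other comparisons.

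The level of STK32A depends in part on the transcripts that the reads were assigned to. The gene length deposited beside its FPKM was 4421 and 4923 bases in the control libraries, 4923 and 3564 in the alcohol libraries and 4388 and 3748 in the co-treated libraries. Between the alcohol libraries the count ratio of library 2 to library 1 was 1.26, while the FPKM ratio was 1.80, with a length ratio of 0.724 and a smaller total count in library 2. For co-treated against control the ratio of mean CPM was 4.82 and that of mean FPKM was 5.68. The order of the 3 groups was the same on both scales. KISS1 had a single length of 731 bases in every library, so its counts and its FPKM moved together.

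At the STK32A locus, the RefSeq gene overlaps DPYSL3, a cytoskeletal protein gene on the opposite strand, by 11183 bases. The 3 STK32A transcripts matched here end at or before base 147387852 of chromosome 5, short of DPYSL3, which starts at 147390811 in GENCODE. DPYSL3 was at 335 and 262 FPKM in control, 282 and 203 in alcohol, and 243 and 252 in co-treated libraries. Its co-treated against control log2 fold change was -0.32 (SE 0.18, adjusted p = 0.489 by edgeR), of opposite sign to that of STK32A. On the other side, at 154 kb, PPP2R2B, a regulatory subunit of protein phosphatase 2A, had a log2 fold change of 0.23 (SE 0.21, adjusted p = 0.72 by edgeR). JAKMIP2, further out, had -0.59 (SE 0.28). GPR151 and JAKMIP2-AS1 were too low to be tested, at no more than 0.16 and 1.04 FPKM.

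At the KISS1 locus, GOLT1A starts 1.67 kb away and was at 0.69 to 1.90 FPKM, below the filter. ETNK2 (log2 fold change -0.24, SE 0.22), PLEKHA6 (-0.18, SE 0.15) and PPP1R15B (-0.05, SE 0.14) were not called between co-treated and control libraries, and LOC101929441 was not tested. Around KISS1R, the nearest genes R3HDM4, ARID3A, MED16 and WDR18 were at 8.87 to 23.4 FPKM in every library, whereas CFD and GRIN3B were under 1 FPKM. Of the 16 neighbours described here, 10 were tested and 0 passed the threshold in any of the 3 comparisons, where at most 0.362% of all genes passed.

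**Figure D3:**
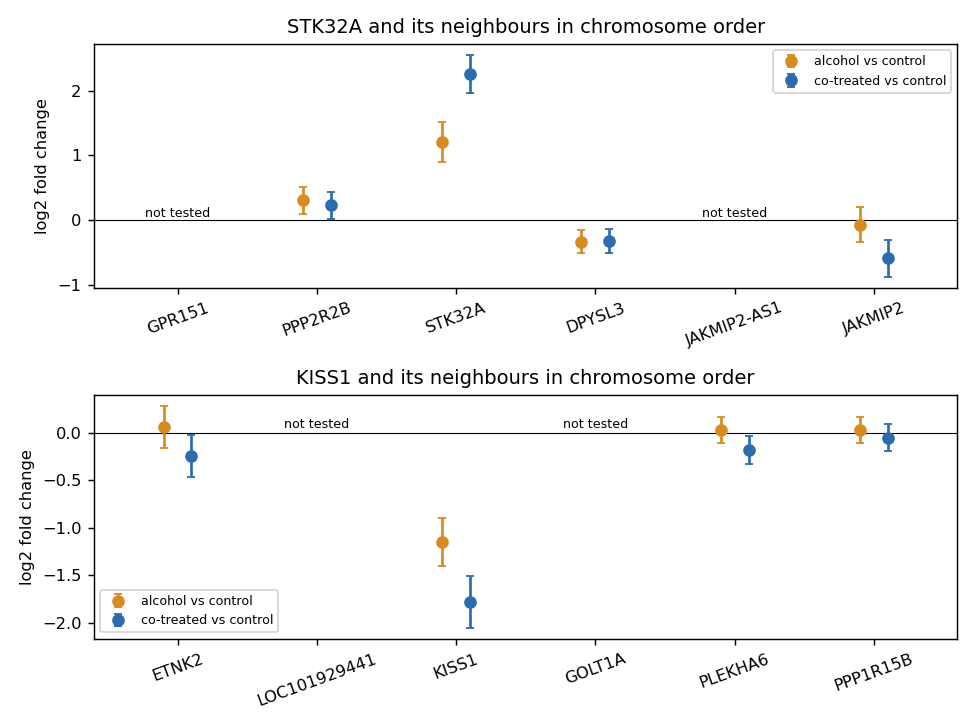
Log2 fold change with bars of 1 SE for STK32A and KISS1 and for neighbouring genes, 5 for each, in chromosome order, for alcohol against control (orange) and co-treated against control (blue), with genes below the filter marked as not tested. STK32A (1.21 and 2.26) and KISS1 (-1.15 and -1.78) stand away from 0, while the tested neighbours lie between -0.59 and 0.31.

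The genes whose log2 CPM followed STK32A most closely over the 6 libraries were MXI1 (Pearson r = 0.998), VIPAS39 (0.997), PLCL2 (0.992), ARHGAP5 (0.989) and PNISR (0.989). MXI1 encodes a MAX-binding repressor that antagonises MYC, and VIPAS39 a protein of endosomal sorting. ARHGAP5 is a RhoA GTPase-activating protein and PLCL2 a catalytically inactive relative of phospholipase C. Their changes were much smaller than that of STK32A, since they spanned 0.63 to 0.84 log2 units across the libraries against 2.64 for STK32A. MXI1, for example, was at 13.7 and 11.5 FPKM in control, 15.9 and 17.9 in alcohol, and 21.6 and 20.8 in co-treated libraries. Its co-treated against control log2 fold change was 0.70 (SE 0.14). MXI1 was picked for its likeness to STK32A over these same libraries, so no p-value is given for it. An r over 0.95 with STK32A was reached by 75 genes.

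KISS1 was followed most closely by CYP3A43 (r = 0.995), LGALS1 (0.985), ZBTB18 (0.984), LOC400794 (0.981) and ANKFY1 (0.981), and 52 genes exceeded 0.95. LGALS1 encodes galectin-1, a secreted lectin, and ZBTB18 a zinc finger repressor. LGALS1 was at 116 and 113 FPKM in control, 79.0 and 98.6 in alcohol, and 82.6 and 67.7 in co-treated libraries. Its co-treated against control log2 fold change was -0.66 (SE 0.15), given without a p-value because likeness to KISS1 picked it. CYP3A43, a cytochrome P450 of the 3A family, had counts of only 10.8 to 20.3. The 5 genes spanned 0.23 to 0.82 log2 units against 1.87 for KISS1. These correlations are descriptions over 6 points that share 3 group means and the library sizes.

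**Figure D4:**
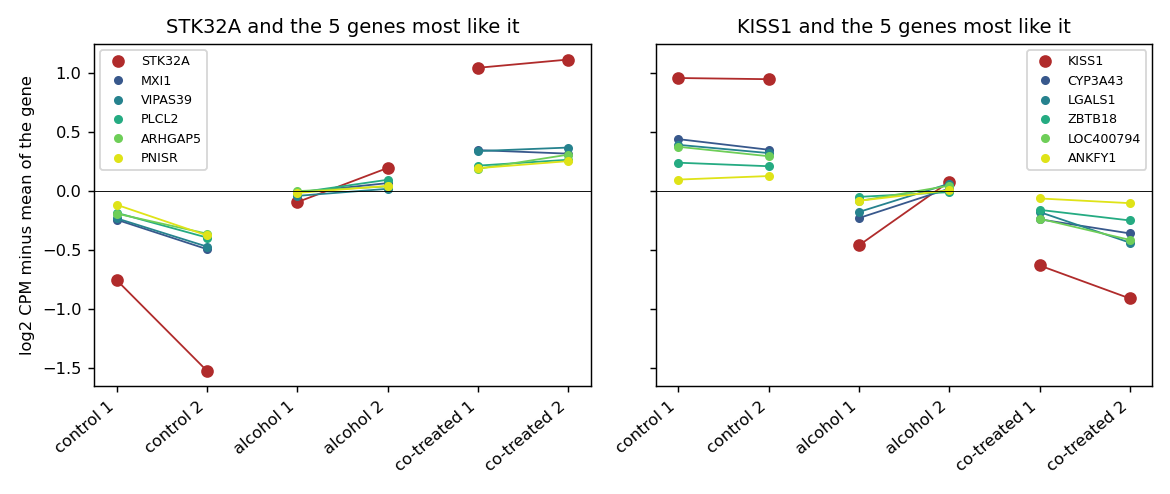
Log2 CPM minus the mean of each gene in the 6 libraries, for STK32A and the 5 genes most like it (left) and for KISS1 and the 5 genes most like it (right), with lines joining the libraries of a group. The order of the group means is shared by genes that were picked for likeness, but the alcohol and co-treated libraries of ANKFY1 overlap. STK32A spans 2.64 and KISS1 1.87 log2 units, against at most 0.84 for the genes most like them.

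No relative of STK32A passed the threshold in any comparison. STK32C was at 5.83 and 7.24 FPKM in control, 6.38 and 8.98 in alcohol, and 7.29 and 8.46 in co-treated libraries. The alcohol libraries overlapped both other groups in FPKM. Both co-treated libraries were above both control libraries, as in 21.6% of all genes tested. The co-treated against control log2 fold change was 0.35 (SE 0.24, adjusted p = 0.606 by edgeR). STK32B was at 0 to 0.39 FPKM and was not tested. In control libraries STK32C was thus the family member with the highest level, and in co-treated libraries both libraries of STK32A were still below both of STK32C. Of 53 other AGC kinases, 50 were tested and 0 passed the threshold in any comparison. At most 0.362% of all genes tested passed in a comparison, so 0 in this list and in those below does not set them apart. Their median log2 fold change for co-treated against control was -0.03, against -0.00 over all genes tested, and the fitted values ran from -1.10 to 0.40. PRKACA, the catalytic subunit of protein kinase A, was at 68.0 to 80.3 FPKM, with a log2 fold change of -0.01 (SE 0.13). DMPK, the myotonic dystrophy kinase, was at 43.9 to 74.5 FPKM with -0.42 (SE 0.16, adjusted p = 0.282 by edgeR), and AKT1 at 36.9 to 48.6 FPKM with -0.23 (SE 0.15).

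Transcripts of some enzymes that process peptide precursors were present, while the proteins and the cleavage of the KISS1 precursor were not measured. PAM, the enzyme that amidates peptide C-termini, was at 149 to 186 FPKM, CPE, the carboxypeptidase that trims them, at 63.0 to 95.3 FPKM, and FURIN, a convertase that cleaves precursors at basic residues, at 17.1 to 22.8 FPKM. Of 13 genes for precursor processing and kisspeptin cleavage 10 were tested and 0 passed in any comparison, and their median log2 fold change for co-treated against control was -0.14. The matrix metalloproteinases MMP2 and MMP14, which can cut kisspeptins, were at 7.61 to 12.6 and 16.0 to 19.1 FPKM. The neuroendocrine convertases PCSK1 and PCSK2 were at most at 0.04 FPKM. The MMP and PCSK genes were named after their values were seen.

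Downstream of the receptor, 22 of the 24 genes of Gq signalling were tested and 0 passed in any comparison, with a median log2 fold change of -0.01 for co-treated against control. RGS5, which shortens signalling by Gq and Gi, was at 76.8 and 90.0 FPKM in control, 63.8 and 70.9 in alcohol, and 48.3 and 66.4 in co-treated libraries. Its log2 fold change of -0.58 (SE 0.15) had an adjusted p = 0.123 by edgeR.

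Other Gq-coupled receptors put the level of KISS1R in context. The endothelin receptor EDNRA was at 25.2 to 29.4 FPKM, the thrombin receptor F2R at 9.71 to 12.1 FPKM, and the adrenergic receptor ADRA1A at 3.46 to 7.08 FPKM. Of the 16 receptors 10 were tested and 0 passed in any comparison. AGTR1, the angiotensin receptor that losartan blocks, was named after its values were seen: it was at 0 FPKM in both control libraries, 0.09 and 0 in the alcohol libraries, and 0 and 0.18 in the co-treated libraries. AGTR1 and KISS1R were thus both at or close to 0 in these cells at this depth, and neither passed the filter. Being so low was not particular to them. TACR1, HTR2A and HTR2B, named after their values were seen, were at no more than 0.12, 0.13 and 0.22 FPKM and were not tested either.

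**Figure D5:**
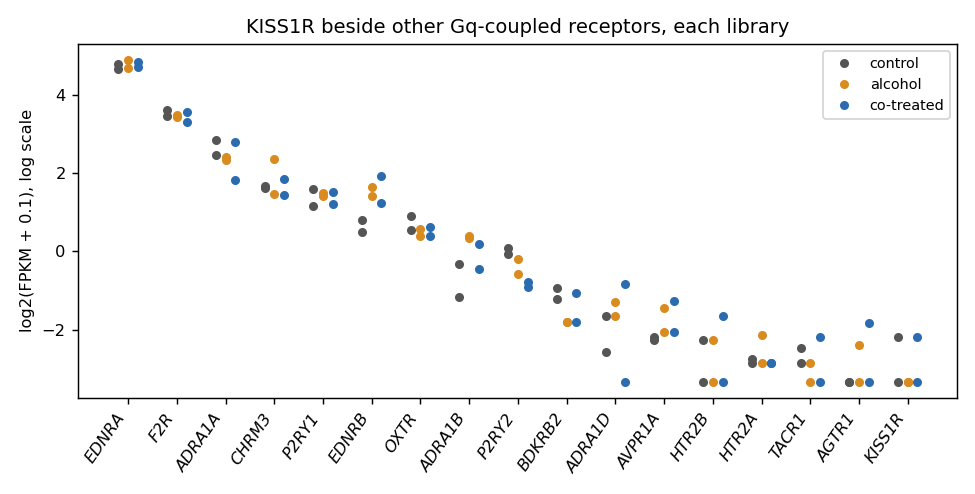
Level of KISS1R and of 16 other Gq-coupled receptors in each library as log2(FPKM + 0.1), a log scale on which 0 FPKM lies at the bottom, ordered by mean level and coloured by group. EDNRA is at the top with 25.2 to 29.4 FPKM. KISS1R lies at the low end with AGTR1, at no more than 0.12 and 0.18 FPKM, and with TACR1, HTR2A and HTR2B, at no more than 0.12, 0.13 and 0.22 FPKM.

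Other RFamide peptides and receptors were scarce. Of 8 listed genes 3 were in the table: QRFPR at 1.45 to 3.19 FPKM, NPFFR2 at 0.88 to 1.70 FPKM and NPFF at 0.33 to 2.33 FPKM. None of the 2 that were tested, QRFPR and NPFFR2, passed in any comparison. The hypothalamic axis on which kisspeptin acts was low as well: TAC3, which encodes neurokinin B, was at 0.26 to 2.74 FPKM, GNRH1 at 0.47 to 1.79 FPKM and the opioid receptor OPRK1 at 0.51 to 1.15 FPKM. Of these 7 genes 2 were tested and 0 passed in any comparison.

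Of the other metastasis suppressors, all 11 were tested and 0 passed the threshold in any comparison, with a median log2 fold change of -0.16 for co-treated against control. NME2 was at 184 to 224 FPKM (log2 fold change -0.24, SE 0.12), PEBP1, a kinase inhibitor protein, at 118 to 141 FPKM (0.12, SE 0.11), and MAP2K4 at 22.8 to 25.2 FPKM (0.02, SE 0.12).

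Of 5 genes named as regulators of KISS1 transcription, 3 were tested. TXNIP, a thioredoxin-binding protein that lies with MED23 and KISS1 in a pathway of metastasis suppression in melanoma, was at 179 and 188 FPKM in control, 218 and 286 in alcohol, and 286 and 349 in co-treated libraries. Both treated groups were above control, and the highest alcohol library equalled the lowest co-treated library to 3 digits. The co-treated against control log2 fold change was 0.74 (SE 0.15), with an adjusted p = 0.0506 by edgeR, just outside the threshold, and it passed in 6 of the 15 other ways of fitting the data. MED23, a Mediator subunit, was at 8.63 and 10.3, 10.9 and 13.5, and 11.2 and 14.0 FPKM in the same order, with 0.34 (SE 0.16, adjusted p = 0.402 by edgeR). SP1, which binds GC boxes, was at 13.3 to 16.8 FPKM with 0.14 (SE 0.12). TFAP2A (AP-2 alpha) and ESR1 (estrogen receptor alpha) were at no more than 0.19 and 0.09 FPKM.

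Over all pathway lists, without STK32A, 109 of 131 genes were tested and 0 passed the adjusted threshold in any of the 3 comparisons by edgeR. Among all genes tested, 0.362% passed in co-treated against control, 0.0670% in alcohol against control and 0.0134% in co-treated against alcohol. With shares this small, 0 of 109 does not set the list genes apart from the rest. At an unadjusted p under 0.05, 4 were higher and 10 lower in co-treated than in control libraries, 6 higher and 7 lower in alcohol than in control, and 1 higher and 1 lower in co-treated than in alcohol. Over all genes tested, an unadjusted p under 0.05 was met by 12.6%, 11.0% and 5.55% in these comparisons. DESeq2 called 2 of the list members between co-treated and control libraries, TXNIP and RGS5, and none in the other comparisons.

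Markers of other cell types were read in the same libraries. The summed level of 5 smooth muscle markers was 1751 to 1985 FPKM in control, 789 to 1507 in alcohol and 1049 to 1095 in co-treated libraries, so that it was lower in every treated library than in both control libraries, as KISS1 was. One of them, ACTA2 (smooth muscle actin), passed the threshold between co-treated and control libraries, with a log2 fold change of -1.25 (SE 0.20, adjusted p = 0.0203 by edgeR). All 5 had a negative value there, but it was small for MYOCD (-0.09, SE 0.12) and for CNN1 (-0.30, SE 0.30). CNN1 was at 422 FPKM in alcohol library 1, above both control libraries (417 and 279 FPKM), so the members did not all follow the sum. The sum of 6 endothelial markers was 5.88 to 6.86 FPKM in control, 7.51 to 8.53 in alcohol and 8.90 to 10.5 in co-treated libraries, the direction of STK32A. Most of that sum was KDR, whose log2 fold change was 0.86 (SE 0.17, adjusted p = 0.0502 by edgeR), and 4 of the 6 markers were under 1 FPKM in every library. TEK was at 1.94 and 1.23 FPKM in control, 1.27 and 1.10 in alcohol, and 0.93 and 1.57 in co-treated libraries, with a log2 fold change of -0.41 (SE 0.36), of opposite sign to that of KDR. PECAM1 had 0.08 (SE 0.41) and CDH5 1.08 (SE 0.63), neither of which passed the threshold. The 12 cardiomyocyte markers summed to 30512 to 31063 FPKM in control, 22052 to 29164 in alcohol and 24905 to 27622 in co-treated libraries. The largest share of that sum was MYL7, the atrial myosin light chain, at 14512 and 16180 FPKM in control, 12612 and 9321 in alcohol, and 10240 and 11847 in co-treated libraries. Of the 12 markers, 5 had a positive and 7 a negative log2 fold change for co-treated against control, with a median of -0.10, and 0 passed the threshold in any comparison. MYL2, the ventricular light chain, had 0.78 (SE 0.44). The part of these differences in the values of STK32A and KISS1 was not tested.

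The placenta is a rich source of KISS1, so trophoblast markers were read too. Of 15 markers 11 were in the table, 7 of them under 1 FPKM in every library, and their sum was 11.1 to 11.3 FPKM in control, 11.1 in alcohol and 8.89 to 9.32 in co-treated libraries. CGA, the alpha subunit of chorionic gonadotropin, was at 0 to 0.36 FPKM, GATA2 at 0.25 to 0.64 and GATA3 at 0.07 to 0.32 FPKM. KRT7, a keratin of simple epithelia, was at 4.77 and 5.24 FPKM in control, 3.63 and 3.74 in alcohol, and 3.51 and 2.74 in co-treated libraries, with a log2 fold change of -0.72 (SE 0.30, adjusted p = 0.336 by edgeR). The other markers tested were ERVW-1, which encodes syncytin-1, with -0.02 (SE 0.30), and HLA-G with 0.17 (SE 0.79). ERVW-1 was at 2.99 to 5.34 FPKM and HLA-G at 0.30 to 1.71 FPKM, and the groups overlapped for both. CGB3, a beta subunit of chorionic gonadotropin that was too low to be tested, was at 0.71 and 0.57 FPKM in control, 1.32 and 1.38 in alcohol, and 0 and 0.33 in co-treated libraries. Neural markers, 7 of 8 in the table, summed to 9.43 to 9.57, 8.09 to 10.5 and 7.52 to 8.11 FPKM in control, alcohol and co-treated libraries. The sums for fibroblasts were 421 to 465, 482 to 516 and 467 to 518 FPKM, for endoderm and liver 36.7 to 38.5, 49.4 to 49.5 and 46.7 to 48.2 FPKM, and for pluripotent cells 11.4 to 12.5, 12.2 to 15.2 and 10.4 to 19.3 FPKM. The part of these levels in the values of KISS1 was not tested.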

How the data were processed

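RNA-seq libraries were assigned to groups from the treatment given in their labels. The authors deposited expected counts, FPKM values and gene lengths for each library. FPKM scales the expected count by gene length and library reads, and the deposited FPKM values do not follow exactly from the deposited lengths. The submitters' processing notes name HISAT2 2.0.4, Bowtie2 2.2.5, RSEM 1.2.12 and hg38 without their roles, and 33.9% of the expected counts are not whole numbers to within 0.001. Genes with no value in a library were set to 0.

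Expected counts were rounded and fitted in edgeR 4.0.16 (R 4.3.3) with TMM normalization, filterByExpr, all 6 libraries in 1 quasi-likelihood fit and two-sided F tests, adjusted by Benjamini-Hochberg at 0.05 over 14926 genes. SE values are |log2 fold change| over the root of F. Log2 CPM used a prior count of 2. With 2 libraries a group, precision is limited. Positions come from RefSeq (GRCh38.p14) and GENCODE, and 99.5% of the table's NCBI Gene numbers matched RefSeq.

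The genes named are the members, the 5 genes most correlated with STK32A and with KISS1, the 3 nearest listed genes on each side of each member, the 5 genes on each side in the ranking by fold change, the 3 list members with the highest FPKM, any list member called, and the STK32, RFamide and KISS1 transcription lists whole. Some genes that this rule covers are not reported here. Members and lists were chosen with earlier results of these data known. Of the list genes, GRK2 and GRK3 stand in the table under older symbols. Alternatives used DESeq2 1.42.0, limma 3.58.1 on log2(FPKM + 1) or log2(FPKM + 0.1), other size factors, other filters, a replicate block, only the libraries compared, and each library left out.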

Additional observations from a re-analysis of the deposited data

How the results depend on the processing

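No direction of STK32A or KISS1 changed under any of the 15 alternatives in any comparison. Both genes were chosen for their difference, and their groups did not overlap. Leaving out 1 library could therefore not reverse a direction, and the other alternatives fitted values of the same libraries. The unchanged direction is thus a description and not a test. The log2 fold change of STK32A for co-treated against control was 1.72 by limma on log2(FPKM + 1), with or without the filter, which understates low genes, and for alcohol against control it was 0.86 in both. Leaving out 1 library in turn gave 1.91 to 2.73, 0.87 to 1.70 and 0.90 to 1.21 for STK32A in co-treated against control, alcohol against control and co-treated against alcohol, and -1.93 to -1.64, -1.45 to -0.88 and -0.89 to -0.32 for KISS1. KISS1R passed no filter on low counts, and in edgeR and limma without a filter its lowest adjusted p was 0.835.

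The count of genes called, which sets the background, was less stable. For co-treated against control it was 54, and it became 113 with DESeq2, 15 with no expression filter, 158 with only the 4 libraries compared, and 2, 3 and 2 with limma on log2(FPKM + 1), on log2(FPKM + 0.1) and on log2(FPKM + 1) with no filter. Leaving out 1 library gave 2 to 184, with 4 and 2 where a co-treated library was left out and 29 without control library 2. For alcohol against control the 10 calls became 68 with DESeq2, 2 with no expression filter, 26 with at least 10 counts in every library, 3 with only the 4 libraries compared, and 0, 2 and 2 with the limma settings in the same order, with 1 to 220 on leaving out 1 library. For co-treated against alcohol the 2 calls became 5 with DESeq2, 1 with no filter, 0 with at least 10 counts in every library, 4 with only the 4 libraries, and 1 and 0 with limma on log2(FPKM + 1) with and without the filter, with 1 to 24 on leaving out 1 library. The cause of these differences was not tested. List members called between co-treated and control libraries were 2 with DESeq2 (TXNIP and RGS5), and 1, TXNIP, with at least 10 counts in every library or with only the 4 libraries compared, and 0 to 1 on leaving out 1 library.

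Deviations of same-numbered replicates correlated with r = 0.114, -0.016 and 0.041 over 14926 genes between control and alcohol, control and co-treated, and alcohol and co-treated libraries, so the numbers were not taken to pair the libraries. With the replicate block the calls were 136, 48 and 5 in co-treated against control, alcohol against control and co-treated against alcohol, and 2 list members, TXNIP and RGS5, were called in the first. With 16 to 111 counts of STK32A and 27 to 102 of KISS1 per library, depth limits both genes, and 2 libraries a group limit every comparison.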
